A study of Mus musculus with 60 samples.

Results

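The genes described are those of 7 families of membrane carriers for amino acids and related small molecules, measured as RNA in the mid-colon of mice with and without collagen-induced arthritis (CIA). They were chosen by name alone, as every row of the count table whose mouse symbol begins with Slc1a, Slc3a, Slc6a, Slc7a, Slc36a, Slc38a or Slc43a. This rule found 66 of 27179 rows. Of these, 63 were carrier genes and 3 were other genes with a symbol ending in os, for opposite strand (Slc6a19os, Slc7a6os and Slc36a1os). Slc7a6os is annotated as protein-coding, and its span does not overlap that of Slc7a6. Reads on the 63 carriers made up 0.256% of all counts.

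Amino acids cross the membranes of gut cells through carriers that differ in what they accept and in what drives them. Slc1 members take up glutamate or exchange small neutral amino acids, and Slc3 proteins are heavy chains that carry certain Slc7 light chains to the cell surface. Slc6 members use the sodium and chloride gradients to take up neutral amino acids, creatine, taurine or neurotransmitters. Slc7 holds the cationic amino acid carriers and the light chains of the heteromeric exchangers. Slc36 carriers move small amino acids with protons, Slc38 carriers take up glutamine and other neutral amino acids with sodium, and Slc43 holds facilitators of large neutral amino acids. In the gut, some of these carriers sit in the enterocyte membrane facing the lumen, whereas others serve the growth of the cell, signal to mTORC1 from the lysosome or clear transmitters around enteric neurons and glia.

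All 60 mice were male DBA/1, kept in a 12 h light and 12 h dark cycle with lights on at ZT0. The 30 CIA mice received bovine type II collagen in complete Freund's adjuvant at 9 to 10 weeks of age on day 0 and a second dose on day 21, both at ZT6, and tissue was taken 7 days after symptoms appeared. The 30 naïve mice, listed with the same age of 9 to 10 weeks, shared cages with them and were not immunised. The adjuvant, the injections and the arthritis therefore cannot be told apart. For each treatment, 5 mice were sampled every 4 h from ZT0 to ZT20, each giving 1 library from a 5 mm section of colon.

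Total counts ran from 25840240 to 61425974 per library. Levels are given as CPM, counts divided by library size after scaling by the trimmed mean of M-values. A gene passed the filter on low counts when it reached a count of about 10 in 5 or more libraries, which 18057 genes did. Every p for treatment came from edgeR's quasi-likelihood F test over all genes tested, with Benjamini-Hochberg adjustment and a threshold of 0.05. The section held the whole wall. All 13 markers of colon epithelium were detected, 4 of them lower in CIA, while all 10 markers of smooth muscle and 11 of 12 markers of enteric neurons were higher. The smooth muscle score, the mean log2 CPM of its 10 markers, ran from 8.77 to 10.9 in naïve libraries (median 9.80) and from 9.57 to 11.3 in CIA libraries (median 10.6). All 7 macrophage markers and 4 of 6 T cell markers were lower in CIA. No marker of these lists averaged 0 CPM. Because these are bulk samples, fewer cells of a type and less RNA per cell cannot be told apart.

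Of the 63 carriers, 54 passed the filter and were tested, and 28 of these averaged at least 10 CPM. The 9 that did not pass were Slc6a3, Slc6a5, Slc6a16, Slc6a18, Slc6a20b, Slc6a21, Slc7a12, Slc7a13 and Slc36a3. Among them Slc6a5, the glycine carrier of inhibitory neurons, had no count in any library, where 3 counts would have been 0.0488 to 0.116 CPM. That limit covers counting error only and treats each count as independent. Low counts were mostly even (74% of those from 1 to 20), so the limit may be too low. Of the genes with a symbol ending in os only Slc7a6os was tested, and its log2 fold change of CIA over naïve was -0.02 (SE 0.04, adjusted p = 0.739).

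Slc6 was the most abundant family, with 1416 ± 291 CPM summed over its members in naïve colon and 1412 ± 346 CPM in CIA colon (mean ± SD, n = 30 mice each). Slc38 followed with 452 ± 53.3 and 450 ± 59.6 CPM, and Slc1 with 307 ± 35.5 and 257 ± 31.8 CPM. Slc7 summed to 149 ± 18.5 CPM in naïve and 149 ± 17.8 CPM in CIA colon although it has 15 genes. The small families Slc3, Slc36 and Slc43 gave 104, 99.0 and 63.0 CPM in naïve mice. The summed level of all 63 carriers was 2589 ± 267 CPM in naïve and 2538 ± 345 CPM in CIA colon, so the means lay closer together than the SD between mice. The Slc1 sum was the one in which the means lay furthest apart relative to that spread.

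Per length of exon, the carriers with the most RNA were Slc6a14, the broad apical carrier for neutral and cationic amino acids, at 160 CPM per kb, and Slc6a8, the creatine carrier, at 153 CPM per kb. Next came Slc1a5, the glutamine and neutral amino acid exchanger ASCT2, at 68.9 CPM per kb. Slc38a2 (SNAT2, a sodium-coupled neutral amino acid carrier) reached 36.8, Slc3a2 (the CD98 heavy chain) 26.5 and Slc6a6 (the taurine carrier) 23.5 CPM per kb. These levels span the families: each of Slc1, Slc6 and Slc38 had a few dominant members and a tail of weak ones. Of all 63 carriers, 21 averaged under 1 CPM, the 9 untested ones among them. In Slc36 most of the level was Slc36a1, the proton-coupled carrier PAT1 (17.1 CPM per kb). In Slc43 the highest was Slc43a3, which carries purine bases and not amino acids, at 11.6 CPM per kb.

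**Figure D1:**
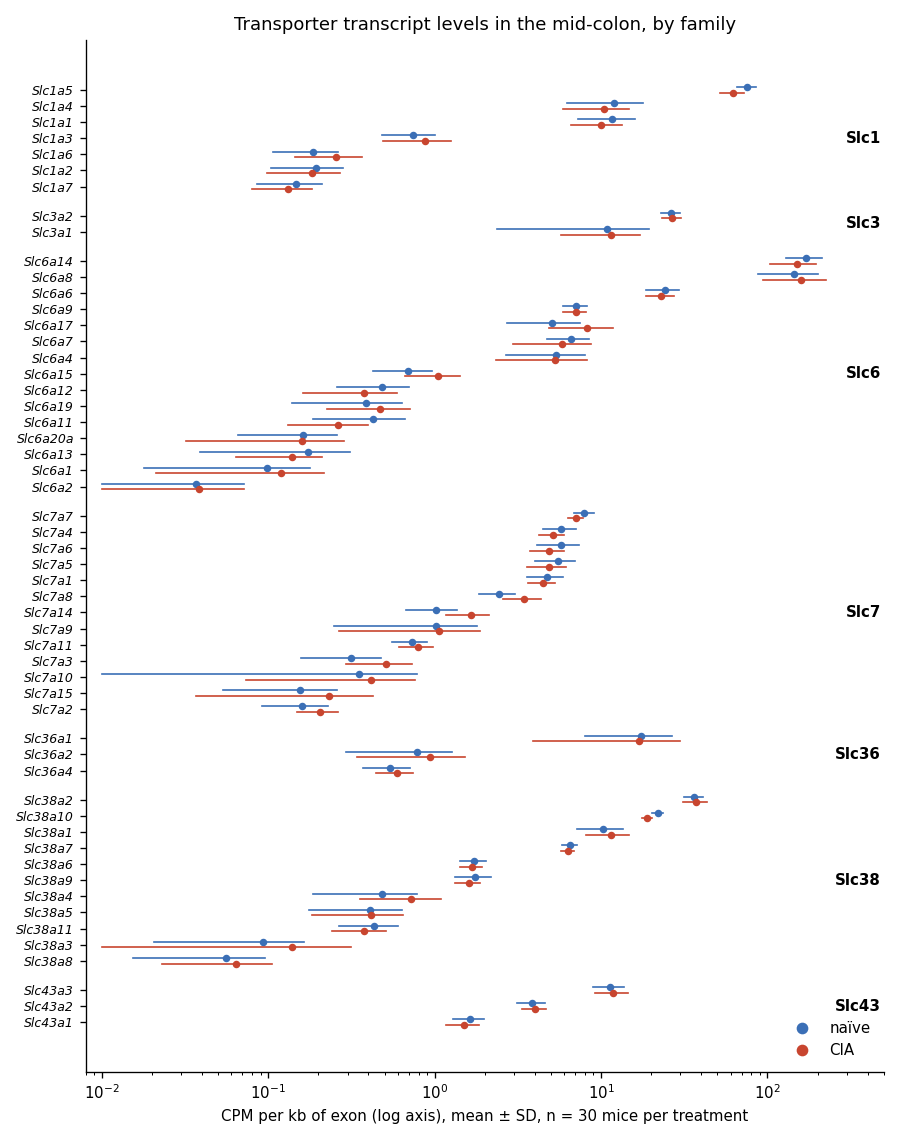
Level of the 54 tested carriers in CPM per kb of exon on a log axis, sorted within family, with points for the mean and lines for the SD over 30 naïve (blue) or 30 CIA (red) mice; lines that would go below 0.01 are cut there. Slc6a14 and Slc6a8 lie highest, and the lines of both treatments overlap for every gene, for Slc38a10 only at their ends.

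The heavy chains set off a contrast in how evenly carriers were expressed. Slc3a2 ran from 59.2 to 96.7 CPM in naïve mice (median 79.3) and from 66 to 107 CPM in CIA mice (median 77.6). Slc3a1 (rBAT, the heavy chain for cystine and dibasic amino acid uptake) ran from 1.47 to 62.6 CPM in naïve (median 21.5) and from 0.839 to 48 CPM in CIA mice (median 28.3). The highest mouse was thus 1.63 times the lowest for Slc3a2 in either group, and 42.6 times (naïve) or 57.3 times (CIA) the lowest for Slc3a1. The light chain of Slc3a1, Slc7a9, was far lower, from 0.414 to 6.66 CPM in naïve mice (median 1.79) and from 0.359 to 7.74 CPM in CIA mice (median 1.89). Exons of Slc3a1 share 601 of 2271 bp with the opposite-strand gene Prepl in the annotation, and the strand setting of the counting is not given in the sources used here, so part of this count could belong to Prepl.

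Over all time points, 8 of the 54 carriers were higher in CIA than in naïve colon and 5 were lower, and 41 did not pass. Of all genes tested, 17.6% were higher and 20.4% lower, so the carriers' shares were no larger than those of genes in general. The median log2 fold change of the carriers was 0.02, against -0.02 for all genes. Higher calls fell in Slc7 (4 of 13), Slc6 (2 of 15), Slc1 (1 of 7) and Slc38 (1 of 11), and lower calls in Slc7 (2), Slc1, Slc6 and Slc38 (1 each). No member of Slc3, Slc36 or Slc43 was called.

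The 8 higher carriers were mostly weakly expressed and included several known from neurons. Carriers of transmitters did not all rise. The GABA carrier Slc6a11 was called lower, at -0.69 in log2 units. The noradrenaline carrier Slc6a2 (0.04, adjusted p = 0.938) and the serotonin carrier Slc6a4 (-0.02, adjusted p = 0.942) did not pass. Slc7a14, a member of the cationic carrier branch found in lysosomes of neural cells (chr3:31202854-31310567, GRCm38), ran from 2.21 to 16 CPM in naïve mice (median 11.3) and from 7.31 to 26.9 CPM in CIA mice (median 16.8). In 16 of 30 CIA mice Slc7a14 exceeded the highest naïve mouse, although the groups overlapped below that, and its log2 fold change was 0.70 (SE 0.13, adjusted p = 3.56e-05). Slc6a17, a carrier of neutral amino acids into synaptic vesicles, ran from 13.3 to 70.2 CPM (median 26.7) in naïve and from 19.8 to 89.9 CPM (median 51.1) in CIA mice, a change of 0.70 in log2 units (SE 0.16, adjusted p = 0.000513). For Slc6a17, 27 of 30 CIA mice lay above the naïve median and 10 above the highest naïve mouse.

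Slc7a8, the neutral amino acid exchanger LAT2, ran from 5.80 to 16.8 CPM in naïve mice (median 9.89) and from 5.94 to 20.5 CPM in CIA mice (median 13). The ranges overlapped widely, yet 29 of 30 CIA mice lay above the naïve median of Slc7a8, and the log2 fold change was 0.50 (SE 0.09, adjusted p = 2.88e-05). Slc6a15, a carrier of branched-chain amino acids and proline in neurons, rose by 0.60 on the log2 scale (SE 0.15, adjusted p = 0.0015) from a naïve median of 2.57 CPM (0.267 to 3.84) to a CIA median of 3.69 CPM (1.55 to 8.82). The mean of these 4 carriers, and of Slc7a2, Slc7a3 and Slc1a6, was higher in CIA at 6 of 6 time points, though few of the single time points passed.

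The other higher carriers were close to the lower end of what was tested. Slc7a3, the cationic carrier CAT3 of neural tissue, had a median of 0.978 CPM in naïve (0.0839 to 1.92) and 1.48 CPM in CIA mice (0.305 to 2.92), a change of 0.69 in log2 units (SE 0.19, adjusted p = 0.00326). Slc38a4, the neutral and cationic carrier SNAT4, had medians of 1.76 CPM (0.348 to 5.77) and 2.73 CPM (0.863 to 6.57), with a change of 0.57 in log2 units (SE 0.21, adjusted p = 0.026). Slc7a2, the cationic carrier CAT2, had medians of 1.35 CPM (0.503 to 2.66) and 1.87 CPM (0.717 to 2.64), a change of 0.36 (SE 0.14, adjusted p = 0.0329). No CIA mouse exceeded the highest naïve mouse for Slc7a2, and 2 did for Slc38a4. Slc1a6, a glutamate carrier of neurons named after its values were seen, averaged under 1 CPM and rose by 0.46 on the log2 scale (SE 0.16, adjusted p = 0.0195).

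The 5 lower carriers included 2 of the abundant ones. Slc38a10, a broadly expressed neutral amino acid carrier (chr11:120103951-120151351), ran from 110 to 158 CPM in naïve mice (median 117) and from 91.5 to 116 CPM in CIA mice (median 101). All 30 CIA mice lay below the naïve median of Slc38a10 and 23 below the lowest naïve mouse. This was the smallest adjusted p among the carriers, at a change of -0.22 in log2 units (SE 0.03, adjusted p = 9.64e-08). Exons of Slc38a10 share 367 of 6421 bp with the opposite-strand gene Gm11769.

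Slc1a5 (chr7:16781334-16798274) ran from 141 to 257 CPM in naïve mice (median 207) and from 102 to 225 CPM in CIA mice (median 168). For Slc1a5, 26 of 30 CIA mice lay below the naïve median and 4 below the lowest naïve mouse, and the log2 fold change was -0.28 (SE 0.06, adjusted p = 7.53e-05). Since Slc1a5 was the largest member of its family, the lower Slc1 sum in CIA followed it. Slc1a4 (the neutral exchanger ASCT1) and Slc1a1 (the glutamate carrier EAAC1), the next in level, had log2 fold changes of -0.21 (SE 0.18, adjusted p = 0.346) and -0.22 (SE 0.13, adjusted p = 0.19) and did not pass.

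Both light chains of the y+L exchangers, which swap cationic for neutral amino acids, were lower. Slc7a7 had medians of 21.6 CPM in naïve (14.6 to 25.7) and 18.6 CPM in CIA mice (15.6 to 22), a change of -0.17 in log2 units (SE 0.05, adjusted p = 0.00188). Slc7a6 had medians of 20.4 CPM (11.2 to 35.6) and 19.3 CPM (10.1 to 25.3), a change of -0.24 (SE 0.09, adjusted p = 0.0361), and its call was lost in 11 of 60 runs that left out 1 library, where the adjusted p reached 0.0677. For Slc7a6, 19 of 30 CIA mice lay below the naïve median. Slc6a11, a GABA carrier, had medians of 1.57 CPM (0.539 to 5.90) and 1.03 CPM (0.293 to 2.61), a change of -0.69 (SE 0.18, adjusted p = 0.00208). Slc7a7 shares 232 of 3315 bp of exon with Oxa1l on the opposite strand.

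**Figure D2:**
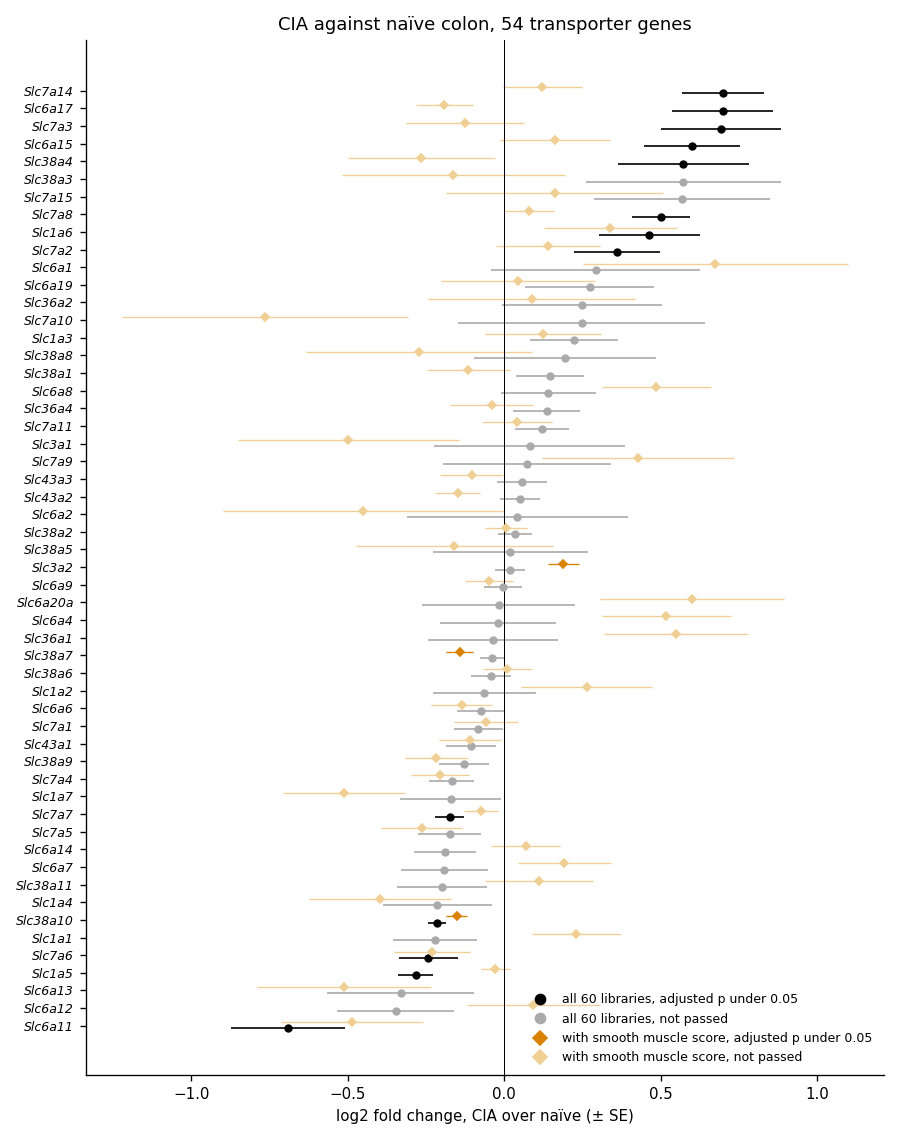
Log2 fold change of CIA over naïve for the 54 tested carriers (± SE, 60 libraries); circles are the fit with treatment as the only term and diamonds the fit with the smooth muscle score added, dark where the adjusted p was under 0.05. The 8 higher calls move toward or past 0 in the second fit, and Slc38a10 moves from -0.22 to -0.15 and stays called. Among the carriers called in the first fit, Slc7a6 moves least, from -0.24 to -0.23, without a call in the second.

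Of the 8 carriers higher in CIA, 6 also rose with the smooth muscle score. With treatment held fixed, 14 of 54 carriers rose with the score and 14 fell with it, against 18.6% and 22.2% of all genes. Slopes, in log2 units per unit of score, were 1.277 for Slc6a17, 1.18 for Slc7a3, 1.11 for Slc38a4, 0.84 for Slc7a14, 0.65 for Slc6a15 and 0.60 for Slc7a8. Those of Slc7a2 (0.33, adjusted p = 0.0691) and Slc1a6 (0.18, adjusted p = 0.492) did not pass. They were negative for several of the abundant carriers, at -0.40 for Slc6a14, -0.55 for Slc6a8, -0.38 for Slc1a5 and -0.96 for Slc36a1.

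With the score as a covariate, none of the 8 higher and 1 of the 5 lower carriers kept its call. The log2 fold change of Slc7a14 was then 0.12 (adjusted p = 0.594), that of Slc7a8 0.08 (adjusted p = 0.596) and that of Slc1a5 -0.03 (adjusted p = 0.765). Slc6a17, Slc7a3 and Slc38a4 took the opposite sign, at -0.19, -0.12 and -0.26, none past the threshold. In Slc7a6 (-0.23, SE 0.12), Slc6a11 (-0.49, SE 0.23) and Slc1a6 (0.34, SE 0.21) the call was lost while most of the fold remained and the SE grew. Slc38a10 remained lower at -0.15 (SE 0.03, adjusted p = 0.00392). In this fit 2.93% of all genes were higher and 3.28% lower. Slc3a2 was higher at 0.19 (SE 0.05, adjusted p = 0.015), against 0.02 (adjusted p = 0.786) without the score. Slc38a7, the lysosomal glutamine carrier, was lower at -0.14 (SE 0.04, adjusted p = 0.0379), against -0.04 (adjusted p = 0.433) without it.

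A score of 12 enteric neuron markers also moved with treatment, from 2.12 to 4.53 in naïve libraries (median 4.17) and from 3.68 to 5.34 in CIA libraries (median 4.70). With that score as a covariate, chosen after the values were seen, no carrier was higher and only Slc38a10 was lower, at -0.11 (adjusted p = 0.0117), where 1.41% of all genes were higher and 1.74% lower. Slc7a14 was then at -0.02 (adjusted p = 0.88) and Slc6a15 at -0.17 (adjusted p = 0.431). The epithelial score, with medians of 9.99 in naïve and 9.93 in CIA libraries, changed no call of a named carrier when used in the same way.

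**Figure D3:**
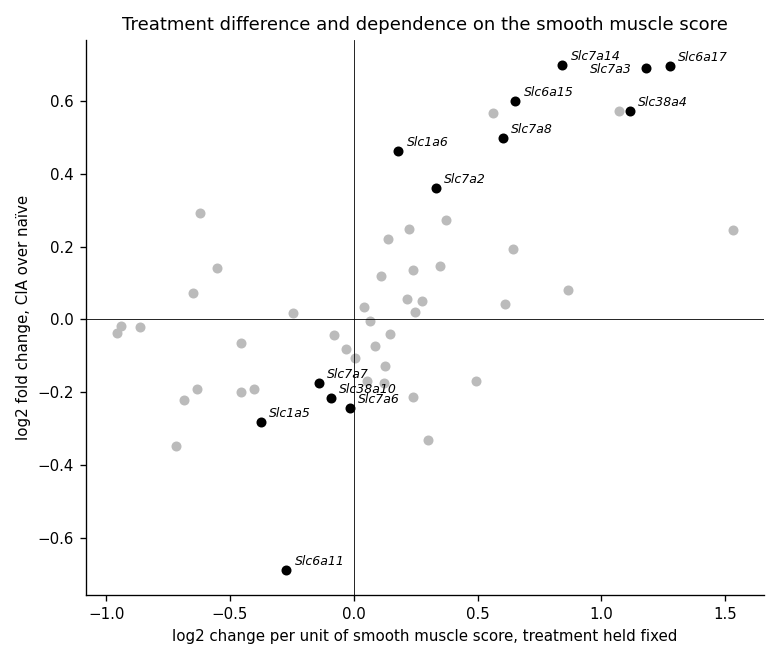
Log2 fold change of CIA over naïve against the slope on the smooth muscle score for the 54 tested carriers, with the 13 called carriers in black and named; both axes are in log2 units and come from the same 60 libraries. All 8 higher carriers have a positive slope, and the 5 lower ones have slopes below 0.

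Rhythms were described with 5 models per gene at a period of 24 h (no rhythm, rhythm lost, gained, shared or changed in CIA), and a class was given where the Schwarz weight of 1 model reached 0.6. Of the 54 carriers, 20 had a shared rhythm, 19 none, 2 lost and 3 gained one, 0 had a changed rhythm and 10 stayed unassigned. Among all genes, 34.7% had a shared rhythm, 35.7% none, 4.65% lost and 2.4% gained one, 0.233% had a changed rhythm and 22.4% were unassigned. By this choice 22 carriers were rhythmic in naïve and 23 in CIA colon, against 39.6% and 37.3% of all genes. An F test of the rhythm within each treatment with limma called 15 carriers in naïve and 20 in CIA mice, where 31.8% and 29.7% of all genes were called. Shared rhythms were most frequent in Slc7 (8 of 13 tested) and Slc6 (6 of 15), with 4 in Slc38, 1 in Slc1 and 1 in Slc43. No member of Slc3 or Slc36 had one.

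Among the 20 carriers with a shared rhythm, 9 peaked in the dark phase in naïve colon and the same number in CIA colon, while 52.1% and 51% of all genes with a shared rhythm did. Their median amplitude, on the log2 CPM scale, was 0.34 in naïve and 0.38 in CIA colon, against 0.21 and 0.20 for all genes of that class. The amplitude was larger in naïve than in CIA colon for 8 of the 20, against 55.9% of all genes of the class.

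Several neutral and cationic amino acid carriers of the general cell membrane peaked late in the dark phase. Slc38a1 (SNAT1), a sodium-coupled glutamine carrier, averaged 123 ± 32.7 CPM at ZT0 and 82.6 ± 14.8 CPM at ZT8 in naïve mice (n = 5 each). In CIA mice Slc38a1 averaged 158 ± 25.3 CPM at ZT0 and 84.8 ± 22.6 CPM at ZT12. The Slc38a1 values at ZT0 in CIA mice (114 to 177 CPM) and at ZT8 (79.9 to 109 CPM) did not overlap, while in naïve mice those of ZT0 (79.8 to 169 CPM) and ZT8 (62.3 to 103 CPM) did. The naïve mean of Slc38a1 was highest at ZT20, at 132 ± 21.6 CPM. Naïve values at ZT20 (104 to 157 CPM) did not overlap those at ZT8 either. Fitted peaks of Slc38a1 were ZT19.4 in naïve and ZT21.7 in CIA colon, with amplitudes of 0.36 and 0.46. Slc1a4 peaked at ZT20.5 and ZT21.8, with amplitudes of 0.43 and 0.55.

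Of the other late carriers, Slc7a1, Slc7a5 and Slc38a5 were named after their values were seen. Slc7a1, the cationic carrier CAT1, peaked at ZT19.5 in naïve and ZT20.6 in CIA colon, Slc7a5, the large neutral exchanger LAT1, at ZT18.6 and ZT19.5, and Slc7a6 at ZT19.0 and ZT19.9. Slc38a2 followed at ZT22.4 and ZT23.0, with small amplitudes of 0.10 and 0.19. Slc7a4, an orphan of the cationic branch, peaked at ZT23.5 and ZT23.7, and Slc38a5, a glutamine carrier, at ZT23.2 and ZT21.7. Slc6a19 (B0AT1), the apical neutral amino acid carrier of the small intestine, was low at 1.52 ± 0.98 CPM in naïve mice (n = 30) and peaked at ZT13.8 and ZT14.0, away from the rest. The limma F test of the rhythm within naïve mice did not call all of these dark-phase carriers. Those not passed were Slc1a4 (adjusted p = 0.11), Slc7a5 (0.0929), Slc38a2 (0.221), Slc7a4 (0.104), Slc38a5 (0.0688) and Slc6a19 (0.0915). In CIA mice only Slc38a5 did not pass (adjusted p = 0.171), and it averaged under 1 CPM.

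The other 11 carriers with a shared rhythm peaked in the light phase. Slc7a9 (the light chain for cystine and dibasic amino acids) had the largest naïve amplitude of those averaging at least 1 CPM, 1.01 with a peak at ZT10.2, and 0.63 with a peak at ZT9.08 in CIA colon. Slc7a9 averaged 4.33 ± 1.95 CPM at ZT12 and 0.82 ± 0.62 CPM at ZT20 in naïve mice, and 3.82 ± 1.84 and 1.53 ± 0.58 CPM in CIA mice (n = 5 each). For Slc7a9 the naïve values at ZT12 (1.70 to 6.66 CPM) and ZT20 (0.414 to 1.89 CPM) overlapped in their tails. The heavy chain Slc3a1 stayed unassigned, with amplitudes of 0.68 in both treatments and peaks at ZT16.7 and ZT18.2.

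Slc6a14 peaked at ZT6.87 in naïve and ZT8.04 in CIA colon, with amplitudes of 0.28 and 0.40. It averaged 717 ± 135 CPM at ZT8 and 473 ± 131 CPM at ZT20 in naïve mice (n = 5 each). In CIA mice Slc6a14 averaged 640 ± 243 and 350 ± 57.4 CPM at these times, and all 5 CIA mice at ZT8 (433 to 1058 CPM) lay above all 5 at ZT20 (284 to 408 CPM). Slc6a4, the serotonin carrier, peaked at ZT6.59 and ZT9.22, with amplitudes of 0.42 and 0.69. Slc6a12, a betaine and GABA carrier, peaked at ZT6.59 and ZT8.82, and Slc7a2 at ZT10.5 and ZT7.54. In the limma F test within each treatment, Slc6a4 did not pass in naïve mice (adjusted p = 0.123). Slc6a12 (adjusted p = 0.0722) and Slc7a9 (adjusted p = 0.109) did not pass in CIA mice. Slc6a11 had like amplitudes of 0.51 in both treatments, with peaks at ZT6.33 and ZT2.09, but its class had a weight of 0.61 and was kept in only 34 of 60 runs that left out 1 library.

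**Figure D4:**
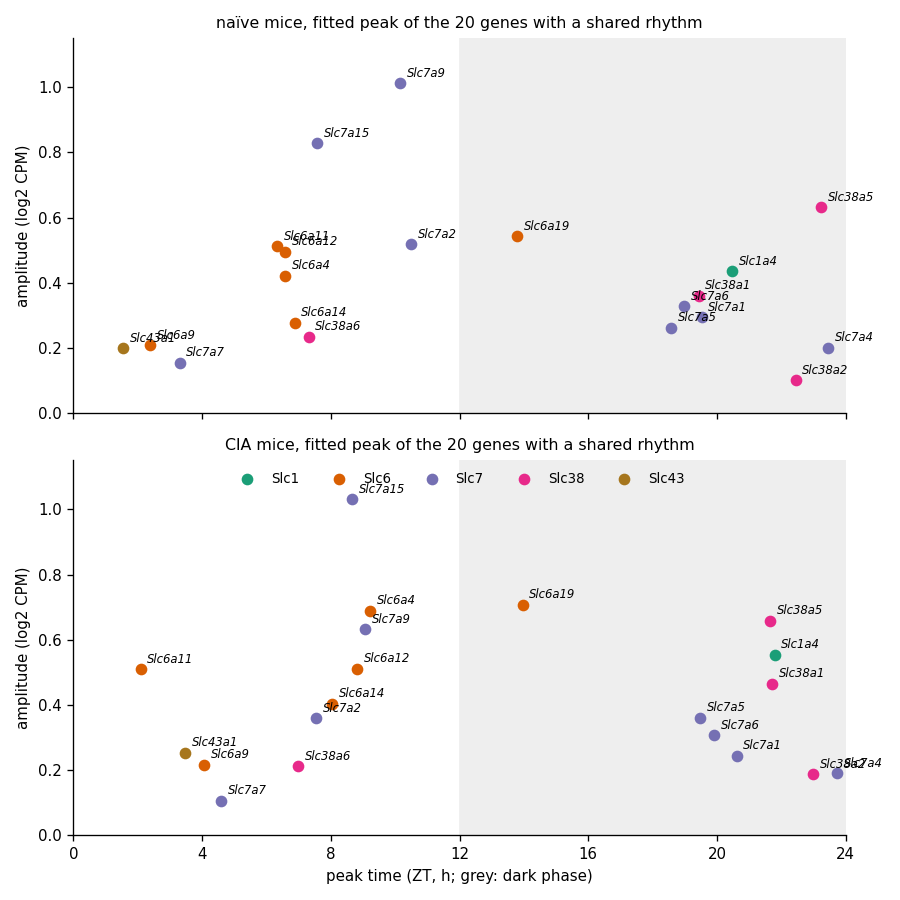
Fitted peak time (ZT, h) and amplitude (log2 CPM) of the 20 carriers with a shared rhythm in naïve (top) and CIA (bottom) colon, coloured by family, with the dark phase in grey. A late cluster between ZT18.6 and ZT23.7 holds 8 carriers in both panels, and Slc6a19 stands alone near ZT14. Not all carriers of the late cluster passed the F test of the rhythm within naïve mice.

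Genes of the amino acid response, which the transcription factor ATF4 turns on when amino acids run short, were listed apart from the carriers. Of 24 tested, 4 were higher and 6 lower in CIA, and 11 had a shared rhythm, 8 of them with a dark-phase peak in naïve colon. For all genes these shares were 17.6%, 20.4%, 34.7% and 52.1%. Late peaks in naïve and CIA colon were found for Asns (asparagine synthetase, ZT19.3 and ZT21.1), Psat1 (serine synthesis, ZT21.0 and ZT22.7), Mthfd2 (mitochondrial folate cycle, ZT20.1 and ZT21.2) and Aldh18a1 (proline synthesis, ZT20.6 and ZT21.7). These lay in the hours of the late carriers, while Atf4 itself was unassigned with amplitudes of 0.06 and 0.10. The 6 lower genes were Phgdh (-0.44, adjusted p = 0.00027), Pycr1 (-0.48, adjusted p = 0.0252), Aldh18a1 (-0.45, adjusted p = 0.00268), Sesn2 (-0.31, adjusted p = 0.00383), Cth (-0.23, adjusted p = 0.004) and Shmt2 (-0.21, adjusted p = 0.000308). The 4 higher genes were Stbd1 (0.37, adjusted p = 0.00124), Atf5 (0.28, adjusted p = 0.000207), Ppp1r15a (0.28, adjusted p = 3.57e-06) and Eif4ebp1 (0.18, adjusted p = 0.000979). The values are log2 fold changes over 60 libraries, and once the smooth muscle score was added to the fit Ppp1r15a (0.19, adjusted p = 0.028) was higher and Shmt2 (-0.19, adjusted p = 0.0407) lower.

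Promoters were searched for the E-box CACGTG, bound by clock factors among others, and for the CARE motif TGATGNAA, to which ATF4 binds with a partner. RefSeq promoter sequences (GRCm38.p6) were matched for 39 of the 54 tested carriers, and the 250 bases before each start were read on both strands. The E-box was present for 7 of these 39 carriers (Slc1a6, Slc1a7, Slc7a14, Slc36a1, Slc38a5, Slc38a7 and Slc43a1), 2 of them among the 16 with a shared rhythm, and in 6.02% of 32851 promoters or 6.86% of 27025 genes. Among the tested carriers the CARE motif was present for Slc7a7 and Slc7a11, the cystine and glutamate exchanger xCT. It was present in 3.45% of promoters or 3.91% of genes. No tested carrier held both motifs. Matches of these letters do not show that a factor binds. The stretches below belong to the carrier with the largest fold change (Slc7a14, chr3:31310379-31310428, minus strand), a carrier with a shared rhythm (Slc38a5, chrX:8271311-8271380, plus strand) and both carriers with a CARE motif (Slc7a11, chr3:50443632-50443719, and Slc7a7, chr14:54418038-54418125, both minus strand). They read 5′ to 3′ with the motif in capitals.
Slc7a14: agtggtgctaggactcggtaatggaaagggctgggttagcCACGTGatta
Slc38a5: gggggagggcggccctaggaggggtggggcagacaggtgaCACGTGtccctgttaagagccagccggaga
Slc7a11: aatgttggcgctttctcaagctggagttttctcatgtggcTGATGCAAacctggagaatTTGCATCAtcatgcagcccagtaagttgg
Slc7a7: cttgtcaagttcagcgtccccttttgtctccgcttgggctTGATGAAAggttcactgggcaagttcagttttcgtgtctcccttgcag
Slc7a7 has another CARE match, within chr14:54417898-54417952 on the minus strand, which is not printed. Slc7a11 holds the motif on each strand. It was unassigned for rhythm, with amplitudes of 0.16 and 0.17, and its log2 fold change was 0.12 (SE 0.09, adjusted p = 0.269).

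Carriers placed in the classes of lost or gained rhythm were few. Slc7a14 was placed in the class of loss, with an amplitude of 0.51 and a peak at ZT12.4 in naïve mice and an amplitude of 0.03 in CIA mice. It averaged 12.2 ± 2.64 CPM at ZT12, 12.5 ± 0.63 CPM at ZT16 and 7.34 ± 1.86 CPM at ZT20 in naïve mice (n = 5 each). In CIA mice Slc7a14 lay between 14.8 ± 5.25 CPM at ZT16 and 17.8 ± 5.15 CPM at ZT20. Of the 12 enteric neuron markers, 8 were in the class of loss as well, against 4.65% of all genes. With the smooth muscle score in the models, the class held 1 carrier, and whether it was Slc7a14 is not reported here.

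Slc43a3 was the other carrier with a lost rhythm, from an amplitude of 0.32 with a peak at ZT12.9 in naïve to 0.11 in CIA colon. All 5 naïve mice at ZT12 lay between 36.6 and 39.8 CPM, above all 5 at ZT20 (21.1 to 28.2 CPM), whereas in CIA mice Slc43a3 ran from 24.8 to 46.3 CPM at ZT12 and from 23.8 to 42 CPM at ZT20. Leaving out any 1 of 5 CIA libraries (ZT0 replicates 2 and 4, ZT4 replicate 3, ZT12 replicate 4 and ZT16 replicate 5) took Slc43a3 out of the class, which then held 1 carrier.

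A rhythm was gained by Slc6a8, by Slc1a3 (GLAST, the glutamate carrier of glia) and by the noradrenaline carrier Slc6a2, which averaged under 1 CPM. The fitted amplitude of Slc6a8 went from 0.07 in naïve to 0.52 in CIA mice, where the peak was at ZT12.5. With treatment held fixed, Slc6a8 rose by 2.84 log2 units per unit of epithelial score (adjusted p = 3.05e-09), and that score averaged 9.759 ± 0.091 at ZT0, 9.965 ± 0.153 at ZT12 and 10.09 ± 0.19 at ZT16 in CIA mice, against 9.924 ± 0.183, 10.02 ± 0.16 and 9.923 ± 0.177 in naïve mice (n = 5 each). Its part in the rhythm was not tested. In naïve mice Slc6a8 averaged from 511 ± 193 CPM at ZT0 to 631 ± 337 CPM at ZT12, and in CIA mice from 414 ± 147 CPM at ZT0 to 955 ± 271 CPM at ZT12 (n = 5 each). Slc6a8 values overlapped between treatments at both times. The amplitude of Slc1a3 went from 0.15 to 0.47, peaking at ZT7.08 in CIA colon. Slc6a8 left the class without CIA ZT0 replicate 1, Slc1a3 without CIA ZT8 replicate 2 or ZT20 replicate 5, and Slc6a2 without CIA ZT12 replicate 4 or 5. Summed over Slc6, the level in CIA mice was 1160 ± 218 CPM at ZT0 and 1807 ± 354 CPM at ZT12, against 1329 ± 290 and 1449 ± 324 CPM in naïve mice.

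These classes are not tests of a difference between treatments. A test of a difference in rhythm with edgeR on 2 degrees of freedom called 0 carriers. At an unadjusted p under 0.05, 2 of 54 (Slc6a11 and Slc43a2) differed, against 6.51% of all genes, of which 0.0222% passed after adjustment. For the carriers that lost or gained a rhythm, the unadjusted edgeR p values of this difference were 0.0698 for Slc7a14, 0.0912 for Slc43a3, 0.12 for Slc6a8, 0.088 for Slc1a3 and 0.488 for Slc6a2. The test of whether the treatment difference varied between the 6 time points, on 5 degrees of freedom, called 0 carriers, with 0 at an unadjusted p under 0.05, against 4.52% of all genes.

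**Figure D5:**
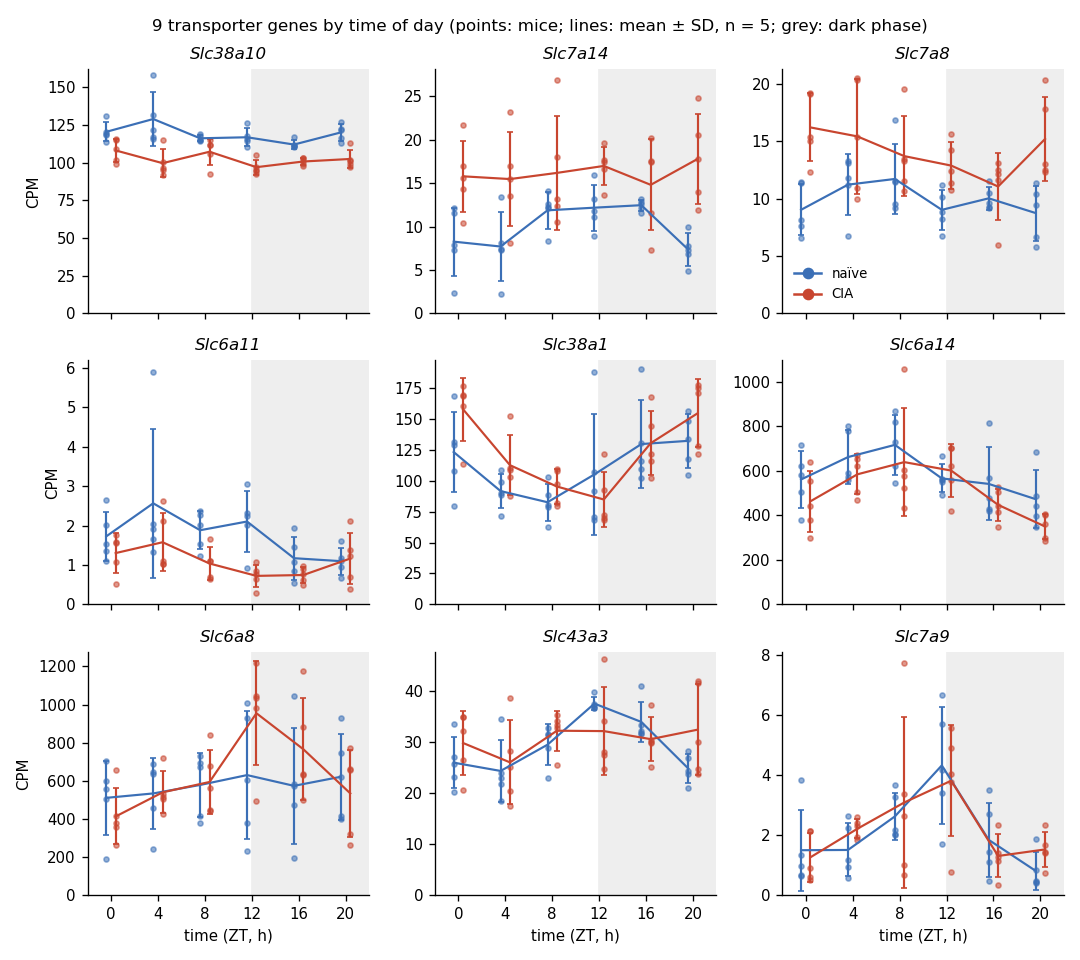
CPM of 9 carriers at 6 times of day in naïve (blue) and CIA (red) mice, with a point per mouse, lines for the mean, bars for the SD (n = 5) and the dark phase in grey. Slc38a10 is lower in CIA at every time, Slc7a14 and Slc7a8 are higher, Slc38a1 is lowest at ZT8 or ZT12, and the Slc6a8 mean of CIA mice is highest at ZT12 with wide spread.

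At single time points, 6 comparisons of 4 carriers passed. Slc38a10 was lower at ZT4, ZT12 and ZT20. At ZT12 its naïve values were 110, 114, 116, 117 and 126 CPM and its CIA values 92.7, 94.3, 95.2, 97.2 and 105 CPM, with no overlap (log2 fold change -0.27, adjusted p = 0.00516). At ZT20 Slc38a10 was at 113, 117, 121, 122 and 127 CPM in naïve mice and at 97.0, 99.0, 101, 102 and 113 CPM in CIA mice, where the groups met near 113 CPM without overlap (log2 fold change -0.23, adjusted p = 0.0164). At ZT4 the log2 fold change of Slc38a10 was -0.37 (adjusted p = 0.0047). Counting both directions, 0.858% of all genes were called at ZT4, 9.28% at ZT12 and 13% at ZT20.

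At ZT20 Slc7a14 was at 4.83, 6.83, 7.25, 7.81 and 10 CPM in naïve mice and at 11.9, 13.9, 17.8, 20.5 and 24.8 CPM in CIA mice. These did not overlap, and the log2 fold change of Slc7a14 was 1.276 (adjusted p = 0.0112). Slc7a8 at ZT20 was at 5.80, 6.67, 9.46, 10.4 and 11.3 CPM in naïve and at 12.3, 12.5, 13, 17.8 and 20.3 CPM in CIA mice, also without overlap (log2 fold change 0.80, adjusted p = 0.0159). Slc6a11 was lower at ZT12, at 0.918, 2.00, 2.23, 2.31 and 3.04 CPM in naïve and at 0.293, 0.633, 0.782, 0.836 and 1.07 CPM in CIA mice, where the lowest naïve mouse fell among the CIA values (log2 fold change -1.53, adjusted p = 0.0126). No carrier was called at ZT0, ZT8 or ZT16, where 0.0222%, 0.0332% and 0.00554% of all genes were.

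Beyond the 7 families, 26 other carriers of amino acids or peptides and their accessory proteins were tested, of which 3 were higher, 3 lower and 7 had a shared rhythm, against 17.6%, 20.4% and 34.7% of all genes. None of these 6 calls held with the smooth muscle score in the fit. Slc15a1, the apical peptide carrier PEPT1, averaged 84.1 CPM with amplitudes of 0.94 and 1.17 and peaks at ZT7.97 and ZT9.21, in the hours of Slc7a9, Slc6a14 and Slc6a4. Slc10a4, a vesicle protein of neurons, rose by 0.72 on the log2 scale (SE 0.14, adjusted p = 6.59e-05) and was in the class of loss, as Slc7a14 was. Anpep, the brush border aminopeptidase, changed by -0.34 (SE 0.08, adjusted p = 0.000417), and by -0.09 (adjusted p = 0.574) with that score. Of 27 genes of amino acid sensing and mTORC1, 5 were higher, 2 lower and 11 had a shared rhythm, with the same shares of all genes to set beside them. With the smooth muscle score 1 was called, Lamtor2, a scaffold of the lysosomal complex (0.18, adjusted p = 0.00461). The 2 lower ones were Tsc2, an inhibitor of the pathway (-0.12, adjusted p = 4.7e-05), and Gcn1, a sensor of stalled translation (-0.21, adjusted p = 0.0124). Rragb, a GTPase of the lysosomal complex that senses amino acids, rose by 0.57 (SE 0.12, adjusted p = 0.000106). Of 19 core clock genes, 16 had a shared rhythm, 2 a changed one and 1 none, and 1 was higher in CIA.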

How the data were processed

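Mid-colon RNA of 60 mice was sequenced by the authors as stranded paired-end mRNA libraries. Per the submitters' processing notes, bcl2fastq 2.17.1.14 made the read files, Trimmomatic 0.36 trimmed them and STAR 2.5.3 did the alignment, for which the genome was GRCm38 (mm10). The authors then counted reads per gene by Rsubread. The deposited values are raw counts for 27179 Entrez identifiers. Low counts were mostly even (74% of those from 1 to 20), and 1904 identifiers had no symbol in the RefSeq table (GRCm38.p6). Exon lengths and overlaps came from GENCODE vM21.

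Counts were analysed in R 4.3.3 with edgeR 4.0.16 and limma 3.58.1. The filter (filterByExpr, minimum count 10, minimum total 15) used the 12 groups of treatment and time, 5 libraries each, so a gene expressed in 1 group could pass. Treatments were compared with treatment as the only term. The SE is the absolute log2 fold change over the square root of F. Rhythm models used log2 CPM (prior count 2). Time points were contrasted in 1 fit of 12 means. Scores are mean log2 CPM of marker lists. Replicate numbers were not used to pair samples in the main fits. Nothing in the labels places replicates in separate cages or batches, and each is 1 mouse.

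Carriers were named if called with at least 1 CPM, if among the highest in a family per length or if in a class of loss or gain. Those strongest in shared amplitude or called at a time point were also named. Others, such as Slc38a7 and Slc7a11, were chosen after their values were seen, which is said for some of them. Members and lists were chosen with earlier results of these data known. The tests were tested on simulated data. Alternatives were DESeq2 1.42.0, other scaling and filters, covariates, other weights, and each library left out. Results of some listed genes are not reported here.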

Additional observations from a re-analysis of the deposited data

Results flagged for a closer look

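Of 108 groups of 5 mice (9 carriers in 12 groups of treatment and time), 9 held a mouse far from the other 4 in CPM, as Dixon's test at the 95% level finds by chance in about 1 of 20 groups. In CIA mice, Slc7a8 at ZT16 was 5.94 CPM in replicate 5 (others 11.6 to 13.1), and the smooth muscle score of that library, 9.57, was the lowest of the CIA libraries. Slc38a1 at ZT0 was 114 CPM in replicate 3 (others 160 to 177). Replicate 4 at ZT8 stood apart for both Slc6a14, at 1058 CPM (others 433 to 605), and Slc43a3, at 25.5 CPM (others 32.8 to 35.4), and its smooth muscle score of 9.82 was the lowest at that time in CIA mice. In naïve mice, Slc6a11 at ZT4 was 5.90 CPM in replicate 1 (others 1.32 to 2.04), the library with the highest Slc38a10 value (158 CPM) and a smooth muscle score of 8.94. Slc7a9 at ZT0 was 3.85 CPM in replicate 5 (others 0.651 to 1.36). Slc43a3 was 39.8 CPM at ZT12 in replicate 1 (others 36.6 to 37.4) and 40.9 CPM at ZT16 in replicate 4 (others 31.6 to 33.4). Slc38a10 at ZT16 was 117 CPM in replicate 2 (others 110 to 111). The part of the smooth muscle score in these values was not tested.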

How the results depend on the processing

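With the smooth muscle score in the fit the 8 higher carriers became 1 (Slc3a2, not among the 8) and the 5 lower ones 2. With the enteric neuron score, added after the values were seen, they became 0 and 1. Signs turned with the first score for Slc38a4 (-0.26), Slc6a17 (-0.19) and Slc7a3 (-0.12), and with the second for Slc38a4 (-0.15), Slc6a15 (-0.17) and Slc7a14 (-0.023). Slc38a10 kept its call in every alternative. Slc7a6 lost its call without a filter on low counts (adjusted p = 0.0537) and without any 1 of CIA ZT4 replicate 2, ZT8 replicate 5, ZT12 replicates 1 and 5, or naïve ZT4 replicate 1, ZT12 replicate 1, ZT16 replicate 4 and ZT20 replicates 1, 2, 3 and 5 (adjusted p up to 0.0677), and Slc7a2 lost its call without naïve ZT0 replicate 5 and CIA ZT12 replicate 2, the libraries with skeletal muscle transcripts (adjusted p = 0.0527). With Akaike weights 3 carriers had a changed rhythm and 1 lost it. At a Schwarz weight of 0.8, 0 gained a rhythm, 1 lost it and 14 were rhythmic in CIA mice, and with the smooth muscle score 1 lost it. Single fits of each time point gave 2 calls in place of 6, and leaving out naïve and CIA replicate 4 at ZT4, whose clock genes stood apart, gave 12. The causes were not tested. With each library left out in turn, the ranges were 8 to 8 higher, 4 to 6 lower, 20 to 24 rhythmic in naïve, 21 to 26 in CIA, 1 to 3 losses, 2 to 4 gains and 5 to 9 calls at time points. Of these, only the calls at time points reused the dispersion of all 60 libraries. The labels do not say whether replicate numbers pair the mice. Of 30 pairs with the same number, 8 had a correlation of residuals over 0.1 (median -0.04), which cannot show how mice were paired or housed. With a replicate block and time point both as terms, 8 carriers were higher and 7 lower. With a replicate block added to the other fits, 21 were rhythmic in naïve and 23 in CIA mice, and 6 calls at time points remained in number. Depth limits the 21 carriers under 1 CPM, where 1 count was 0.0163 to 0.0387 CPM.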
